A study of Rattus norvegicus with 17 samples.

Results

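The naive and quiescent T cell genes described here are 10 genes that resting T lymphocytes are known to express: the interleukin 7 receptor gene Il7r, the transcription and chromatin factor genes Tcf7, Lef1, Satb1, Foxo1, Foxp1, Klf3, Bach2 and Ets1, and the antiproliferative gene Btg1. They were taken by symbol from the deposited expression table, from transcript clusters annotated to exactly 1 gene, and they are 10 of 14506 distinct genes on the arrays. Each of the 10 had 1 transcript cluster, and all 10 passed the filter on low values that left 10879 genes for testing. The cells were CD4+ T cells that had been purified by fluorescence-activated sorting out of the inguinal nodes of Dark Agouti (DA) female rats. All rats had been immunized with myelin oligodendrocyte glycoprotein (MOG), which in this inbred strain starts experimental autoimmune encephalomyelitis (EAE), used to model multiple sclerosis, and cells were taken 7 days later. The groups differed in the vitamin D content of the diet, fed from 5 weeks before immunization onwards. They were a deprived group (0 IU, 5 arrays), a regular group (2 IU, 6 arrays) and a supplemented group (10 IU, 6 arrays). The rats were age matched, and the sources used here give neither their age nor the amount of feed to which the IU refer. No unimmunized rats were among the samples, so every comparison is between diets within immunized animals. The study asked what dietary vitamin D does to gene expression in CD4+ T cells. The labels call the replicates biological replicates without naming the rats, so a p-value reflects the scatter among these arrays.

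A naive T cell has left the thymus and not yet met its antigen. It stays small and out of the cell cycle, survives on interleukin 7, and circulates through lymph nodes. TCF1 (the product of Tcf7) and LEF1 are related DNA-binding factors at the end of the Wnt pathway that hold the naive and memory programmes open. FOXO1 is active while growth factor signalling is low and switches on genes for homing and survival, Il7r among them, and FOXP1 is a forkhead factor needed for quiescence that can oppose FOXO1 at Il7r. BACH2 represses effector genes, KLF3 and ETS1 are factors of resting lymphocytes, SATB1 folds chromatin, and BTG1 promotes the decay of messenger RNA and so restrains proliferation. Activation through the antigen receptor lowers many of these genes.

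Values are log2 expression on the authors' normalized scale, so a difference of 1 is a 2-fold change. The spread of an array, the SD of all its log2 values, differed between diets. It ran from 1.91 to 1.97 on the supplemented arrays, from 2.00 to 2.06 on the regular arrays and from 2.03 to 2.07 on the deprived arrays (two-sided exact permutation p = 0.00216, adjusted p = 0.00325, for supplemented against each other diet). The difference between supplemented and deprived arrays correlated with the mean level at -0.55 across genes, which are no independent replicates. Member calls are given below with their values on other scalings where the call or direction changed, and the part of the array spread in the results was not tested beyond these values. The sorted population carried its own markers: Cd4 lay between 9.01 and 10.34 and the receptor subunit gene Cd3g between 11.93 and 12.26. The mean of 9 B cell markers ran from 5.88 to 6.00 on the deprived, 5.80 to 6.16 on the regular and 6.02 to 6.39 on the supplemented arrays. The mean of 14 macrophage, monocyte and neutrophil markers ran from 5.39 to 5.60, 5.43 to 5.56 and 5.60 to 5.66 in the same order, and that of 9 CD8 T and NK cell markers from 6.14 to 6.28, 6.21 to 6.37 and 6.10 to 6.27. Of the B cell markers 7 passed the filter, among them Cd22 (7.42 on average) and Cd79b (7.23). Of the 14 myeloid markers 8 passed, among them Lyz2 (7.23). The B cell gene Ms4a1 (5.12) and the myeloid genes Itgam (4.40), Adgre1 (4.90) and S100a8 (3.21) lay below the lowest mean among tested genes, 5.32. Between supplemented and regular rats 5 B cell and 2 myeloid markers were called higher and 0 lower, beside 10.8% of all genes higher. The B cell count was 3 after quantile normalization and 2 after cyclic loess, and the myeloid count was 1 after each. Cd22 went the other way on the deposited values (-0.492, not past the threshold). Between supplemented and deprived rats 5 B cell markers were called higher and 1, Cd22 (-0.585), lower. In that comparison 3 myeloid markers were higher and 0 lower, beside 18.6% of all genes higher and 28.6% lower. The mean of 9 CD4 T cell markers was lower on the supplemented arrays, 10.18 to 10.41, than on the regular (10.48 to 10.70) and deprived arrays (10.47 to 10.67) on the deposited scale. The median difference of those 9 genes between supplemented and deprived rats was -0.235 there, 0.005 after quantile normalization and 0.03 after cyclic loess. Against regular rats it was -0.294, -0.106 and -0.102 in the same order. On the deposited values 5 of the 9 were then called lower and 0 higher, beside 22.9% of all genes lower. Each of the 2 normalizations called 4 lower and 1 higher. Cd4 itself differed from regular rats by -0.587, -0.42 and -0.409, each past the threshold. In sorted populations measured in bulk, fewer naive cells and less RNA per cell cannot be told apart.

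On the deposited values the differences of the 10 genes between diets were small, the largest being 0.26 on the log2 scale. Some were larger on other scalings, as given below. In limma's moderated test with Benjamini-Hochberg adjustment over the 10879 genes, Foxp1 was higher and Satb1 lower in supplemented than in regular rats, and the other 8 genes did not pass. These 2 of 10 calls stand beside 33.7% of all genes called in that comparison, 10.8% higher and 22.9% lower. In deprived against regular rats Il7r was higher and the other 9 did not pass, beside 1.67% of all genes called, 1.49% higher and 0.184% lower. In supplemented against deprived rats Foxp1 was higher, Satb1, Btg1, Bach2 and Il7r were lower, and 5 did not pass, beside 47.2% of all genes called, 18.6% higher and 28.6% lower. The moderated F test over the 3 diets called 4 of the 10 genes, Il7r (adjusted p = 0.00606), Satb1 (0.0137), Foxp1 (0.0190) and Bach2 (0.0235), beside 45.3% of all genes. The share of members called was below the background for supplemented against regular rats, and near it in the F test and for supplemented against deprived rats. In deprived rats the count rests on 1 gene.

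On the deposited values the groups of arrays overlapped for most genes. Some of these overlaps changed after quantile normalization, with ranges given for single genes below. For supplemented against regular rats they overlapped for all 10 genes, where 12.1% of all genes did not overlap. For deprived against regular rats they did not overlap for Il7r, where 5.53% of all genes did not overlap, and for supplemented against deprived rats they did not overlap for Foxp1, where 24.1% of all genes did not overlap. The median difference of the 10 genes was -0.08, -0.04 and -0.05 in the 3 comparisons in the order given, beside medians of all genes at 0.00. The 3 comparisons share arrays, supplemented and deprived rats being compared with the same 6 regular arrays.

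**Figure D1:**
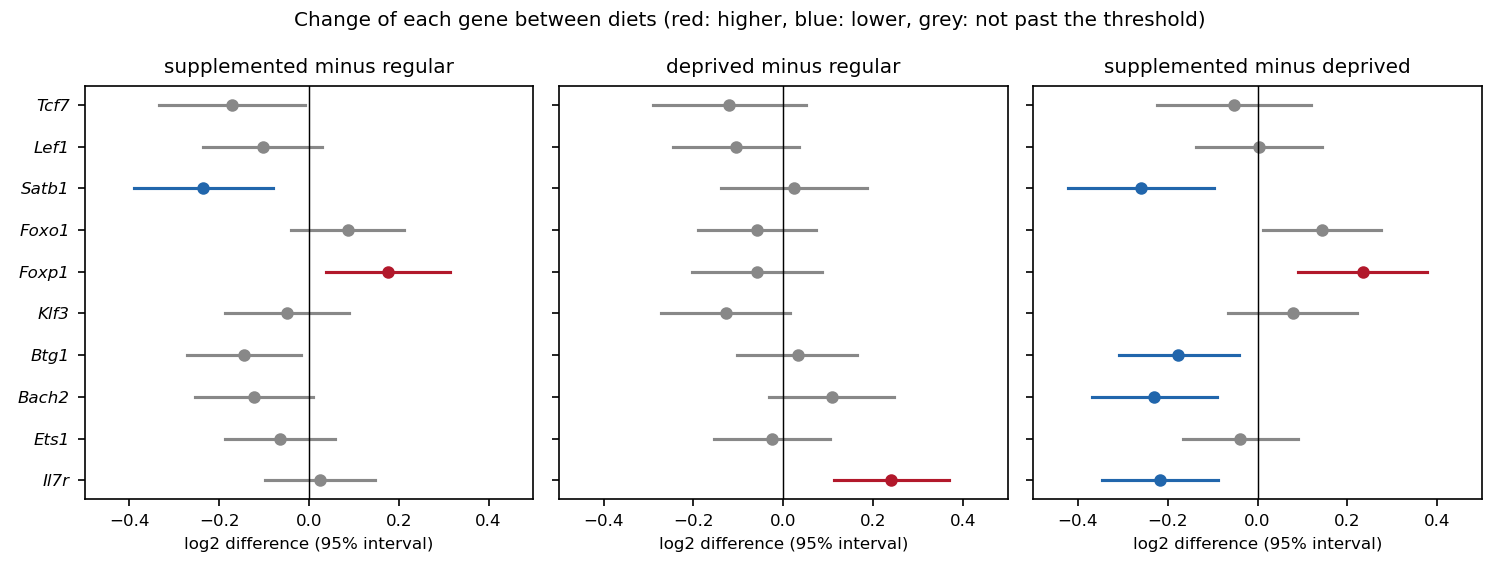
Log2 difference of each of the 10 genes between diets, with the 95% interval of the limma model. Red points passed as higher, blue points as lower, and grey points did not pass at an adjusted p of 0.05. Satb1 (-0.235) and Foxp1 (0.176) passed for supplemented minus regular diet, Il7r (0.241) for deprived minus regular diet, and 5 genes for supplemented minus deprived diet.

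Il7r encodes the alpha chain of the interleukin 7 receptor, the survival receptor of resting T cells, and was the member that passed in deprived rats. The bases just before its listed start are shown because it is the member whose deprived and regular arrays did not overlap. They lie at chr2:60204918-60205167 on the minus strand of the rat assembly GRCr8, as RefSeq lists the start, and are printed 5′ to 3′ on the gene's strand. Capitals mark TGTGGT, the core letters bound by RUNX factors.

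Il7r promoter: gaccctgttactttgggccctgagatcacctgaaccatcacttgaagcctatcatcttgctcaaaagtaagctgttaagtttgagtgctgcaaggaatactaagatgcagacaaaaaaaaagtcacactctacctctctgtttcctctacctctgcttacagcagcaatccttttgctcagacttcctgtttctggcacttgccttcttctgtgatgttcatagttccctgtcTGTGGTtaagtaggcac

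The stretch held 44.4% G and C and no CG pair. On the arrays, Il7r read 11.17, 11.23, 11.29, 11.32 and 11.40 in the 5 deprived samples. In regular rats its lowest, median and highest values were 10.96, 11.06 and 11.09, and in supplemented rats 10.94, 11.05 and 11.27. All 5 deprived arrays lay above the highest regular array, and 5 of 6 supplemented arrays lay below the lowest deprived array, the exception being replicate 1 at 11.27. Il7r was higher in deprived than in regular rats by 0.24 (SE 0.06, n = 5 and 6, 95% interval 0.11 to 0.37, limma adjusted p = 0.0491), or 18.2% on the linear scale. It fell by 0.22 between deprived and supplemented rats (SE 0.06, limma adjusted p = 0.00731), and the difference between supplemented and regular rats was 0.02 (interval -0.10 to 0.15).

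The call in deprived rats was close to the threshold: it passed in 4 of the 17 fits that left out 1 array (supplemented replicate 1, 2, 3 or 5) and was lost when any deprived or regular array was left out, with adjusted p up to 0.159 and differences from 0.21 to 0.27. The order of the diets depended on the scaling. After quantile normalization Il7r ran from 11.06 to 11.32 in deprived, from 10.92 to 11.04 in regular and from 11.11 to 11.33 in supplemented rats. The regular arrays then lay below both other groups without overlap, the difference between deprived and regular rats was 0.20 (limma adjusted p = 0.106), and that between supplemented and regular rats was 0.21 (adjusted p = 0.00710). The fall in supplemented against deprived rats was no longer present on that scale (0.01) or after cyclic loess (0.06).

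**Figure D2:**
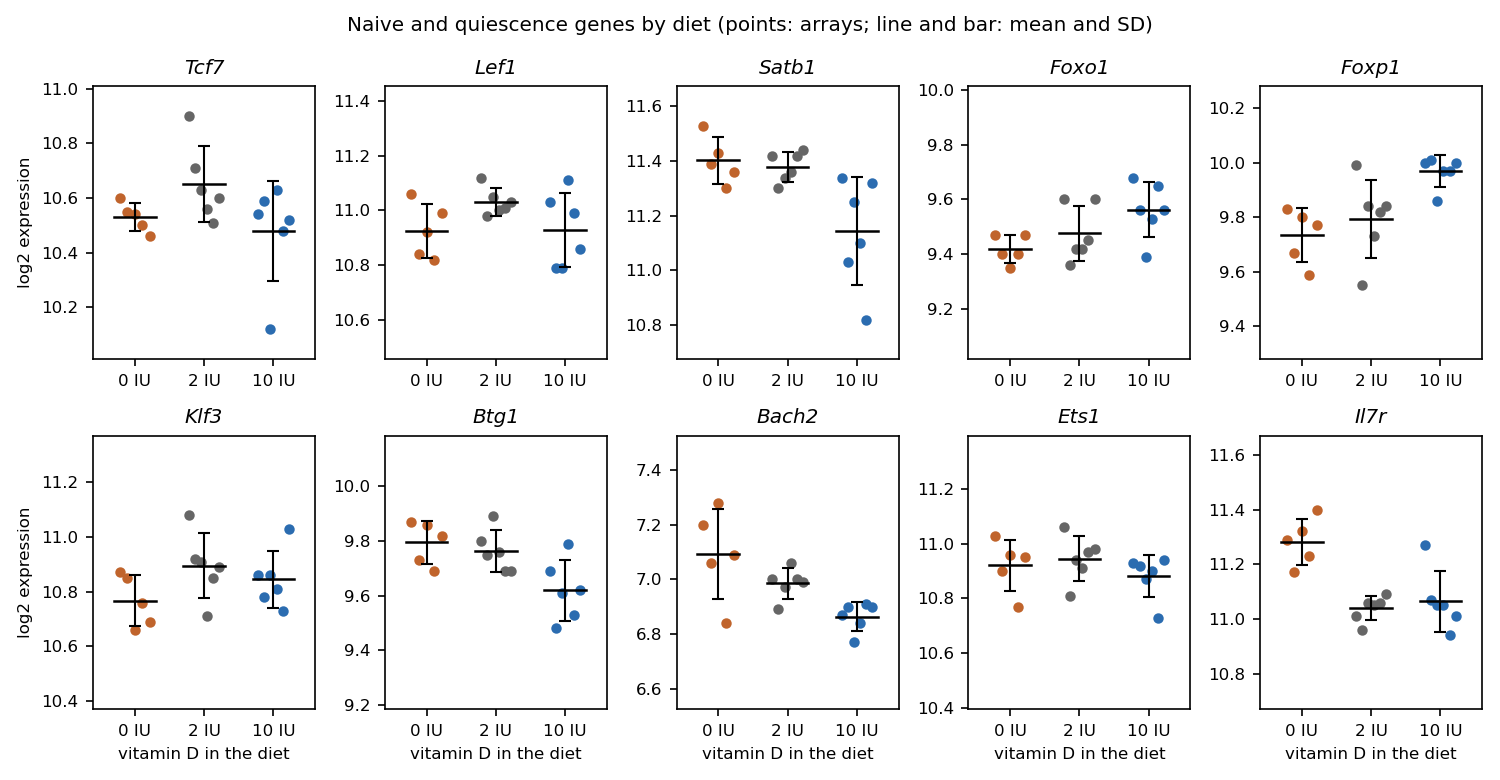
Log2 expression of the 10 genes on every array by diet (0, 2 and 10 IU of vitamin D), with the mean and SD of each diet as line and bar; each panel has its own level but the same height in log2 units. The 5 deprived arrays of Il7r sit at 11.17 to 11.40, above all regular arrays (10.96 to 11.09), and the 6 supplemented arrays of Foxp1 at 9.86 to 10.01, above all deprived arrays (9.59 to 9.83).

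Of the forkhead pair, Foxp1 was higher in supplemented rats. Its start region is shown because Foxp1 is the member whose supplemented and deprived arrays did not overlap. The start that RefSeq lists lies within the annotated span of Foxp1. The bases lie at chr4:133353281-133353530, minus strand, GRCr8, and capitals mark TGTTTAC, the letters recognised by FOXO factors.

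Foxp1 promoter: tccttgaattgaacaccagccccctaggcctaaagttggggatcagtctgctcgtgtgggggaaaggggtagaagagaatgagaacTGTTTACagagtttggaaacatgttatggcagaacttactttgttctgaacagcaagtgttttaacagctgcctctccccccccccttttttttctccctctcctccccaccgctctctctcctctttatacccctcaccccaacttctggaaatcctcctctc

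The 5 deprived samples read 9.59, 9.67, 9.77, 9.80 and 9.83 for Foxp1. The lowest, median and highest values were 9.55, 9.83 and 9.99 in regular rats and 9.86, 9.99 and 10.01 in supplemented rats. All 6 supplemented arrays lay above the highest deprived array, and 3 of 6 lay above the highest regular array. Foxp1 rose by 0.23 from deprived to supplemented rats (SE 0.07, n = 6 and 5, interval 0.09 to 0.38, limma adjusted p = 0.00914), or 17.6%, and by 0.18 from regular to supplemented rats (SE 0.07, n = 6 and 6, adjusted p = 0.0453). Deprived and regular rats differed by -0.06 (interval -0.20 to 0.09).

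The higher Foxp1 level in supplemented than in deprived rats held in all 17 fits with 1 array left out and was larger after quantile normalization (0.48) and cyclic loess (0.48). With each array centred on its median it was 0.13 and did not pass (limma adjusted p = 0.161). The rise over regular rats passed in 4 of 17 fits with 1 array left out (deprived replicate 2 or 5, supplemented replicate 3 or regular replicate 1), with differences from 0.13 to 0.21 and adjusted p up to 0.125. With each array centred on its median it was 0.10 (adjusted p = 0.310). On quantile-normalized values the supplemented arrays (9.93 to 10.21) lay above all regular arrays (9.51 to 9.90).

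Foxo1, the factor that maintains Il7r and lymph node homing genes, did not pass in any comparison on the deposited values. Its values were 9.35, 9.40, 9.40, 9.47 and 9.47 in deprived rats, 9.36, 9.44 and 9.60 (lowest, median, highest) in regular rats, and 9.39, 9.56 and 9.68 in supplemented rats. In 5 of 6 supplemented arrays Foxo1 lay above the highest deprived array, replicate 3 being the exception. The difference between supplemented and deprived rats was 0.14 (SE 0.06, interval 0.01 to 0.28, limma adjusted p = 0.0668), and that between supplemented and regular rats 0.09 (interval -0.04 to 0.21). After quantile normalization the same differences were 0.40 (adjusted p = 1.57e-04) and 0.27 (adjusted p = 0.00371), both past the threshold. On that scale the supplemented arrays (9.47 to 9.86) lay above all deprived arrays (9.23 to 9.36).

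Tcf7 and Lef1, the T cell factor pair, did not pass in any of the 3 comparisons on the deposited values. Tcf7 read 10.46, 10.50, 10.54, 10.55 and 10.60 in deprived rats, 10.51, 10.62 and 10.90 (lowest, median, highest) in regular rats, and 10.12, 10.53 and 10.63 in supplemented rats. The highest value was that of regular replicate 1 and the lowest that of supplemented replicate 3, and all 3 groups overlapped. The difference between supplemented and regular rats was -0.17 (SE 0.08, interval -0.34 to -0.01, limma adjusted p = 0.0925), and between deprived and regular rats -0.12 (adjusted p = 0.491). On quantile-normalized values the deprived arrays (10.35 to 10.45) lay below all regular arrays (10.51 to 10.81), and the difference did not pass.

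Lef1 stayed within a narrower band. It read 10.82, 10.84, 10.92, 10.99 and 11.06 in deprived rats, 10.98, 11.02 and 11.12 (lowest, median, highest) in regular rats, and 10.79, 10.92 and 11.11 in supplemented rats. The 6 regular arrays were the most alike, with an SD of 0.05 against 0.10 in deprived and 0.13 in supplemented rats, and the lower end of each other group fell below them. Differences from regular rats were -0.10 for supplemented (interval -0.24 to 0.03) and -0.11 for deprived rats (interval -0.25 to 0.03). Supplemented and deprived rats differed by 0.00 (interval -0.14 to 0.14), but by 0.23 after quantile normalization (limma adjusted p = 0.00985) and 0.28 after cyclic loess (adjusted p = 0.00243). On quantile-normalized values the deprived arrays (10.71 to 10.93) lay below all regular arrays (10.95 to 11.01), and that difference did not pass.

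Satb1, a chromatin organizer that is abundant in T cells, was lower with supplementation. Its values were 11.30, 11.36, 11.39, 11.43 and 11.53 in deprived rats. In regular rats the lowest, median and highest were 11.30, 11.39 and 11.44, and in supplemented rats 10.82, 11.18 and 11.34. In 4 of 6 supplemented arrays Satb1 lay below every array of the other 2 diets, while replicates 1 and 6 (11.34 and 11.32) lay among them. The supplemented arrays were also the most scattered, with an SD of 0.20 against 0.06 in regular and 0.09 in deprived rats.

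Satb1 fell by 0.235 from regular to supplemented rats (SE 0.075, n = 6 and 6, limma adjusted p = 0.0195), and by 0.26 from deprived to supplemented rats (SE 0.08, n = 5 and 6, adjusted p = 0.0102). Deprived and regular rats differed by 0.02 (interval -0.14 to 0.19). Without supplemented replicate 5, which had the lowest Satb1 value and the smallest array spread, the first difference was -0.17 (adjusted p = 0.0541). After quantile normalization the differences were -0.04 and -0.03, neither passing, and the supplemented arrays (11.03 to 11.44) overlapped the regular (11.24 to 11.40) and deprived arrays (11.25 to 11.38).

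Bach2, the repressor of effector programmes, was lower in supplemented than in deprived rats. Its mean over the arrays was 6.97, and the lowest mean that passed the filter was 5.32. Deprived rats read 6.84, 7.06, 7.09, 7.20 and 7.28, regular rats 6.89, 6.99 and 7.06 (lowest, median, highest), and supplemented rats 6.77, 6.88 and 6.91. Deprived replicate 5 (6.84) was the 1 deprived array inside the supplemented range, and the other 4 lay above all 6 supplemented arrays. Bach2 fell by 0.23 from deprived to supplemented rats (SE 0.07, n = 5 and 6, limma adjusted p = 0.00806). On the linear scale it fell by 14.8%.

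Bach2 in regular rats lay between, at -0.12 for supplemented minus regular (interval -0.26 to 0.01) and 0.11 for deprived minus regular (interval -0.03 to 0.25), neither passing. On quantile-normalized values the supplemented arrays (6.76 to 6.89) lay below all regular arrays (6.91 to 7.06). The lower level in supplemented than in deprived rats was called after quantile normalization (-0.25), after cyclic loess (-0.27), with each array centred on its median (-0.33) and in all 17 fits with 1 array left out. The difference was -0.13 with the B cell marker mean as a covariate (limma adjusted p = 0.245) and -0.29 with the myeloid marker mean (adjusted p = 0.0521), neither passing.

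Btg1, which slows proliferation, was lower in supplemented than in deprived rats on the deposited values. It read 9.69, 9.73, 9.82, 9.86 and 9.87 in deprived rats, 9.69, 9.76 and 9.89 (lowest, median, highest) in regular rats, and 9.48, 9.61 and 9.79 in supplemented rats. In 5 of 6 supplemented arrays Btg1 lay below the lowest deprived array, replicate 4 (9.79) being the exception, and 4 of 6 lay below the lowest regular array. Btg1 fell by 0.18 from deprived to supplemented rats (SE 0.06, n = 5 and 6, limma adjusted p = 0.0299). The difference between supplemented and regular rats was -0.14 (SE 0.06, adjusted p = 0.0729). The call between supplemented and deprived rats passed in 12 of 17 fits with 1 array left out, failing without deprived replicate 2, 4 or 6 or supplemented replicate 2 or 5 (adjusted p up to 0.0733), and the difference was 0.07 after quantile normalization and cyclic loess, neither passing.

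Klf3 and Ets1 showed no difference past the threshold on the deposited values. Klf3, a repressor of the Kruppel-like family, read 10.66, 10.69, 10.76, 10.85 and 10.87 in deprived rats, 10.71, 10.90 and 11.08 (lowest, median, highest) in regular rats, and 10.73, 10.83 and 11.03 in supplemented rats. Its difference between deprived and regular rats was -0.13 (interval -0.27 to 0.02, limma adjusted p = 0.364) and between supplemented and deprived rats 0.08 (interval -0.07 to 0.22). Ets1, a factor of resting lymphocytes, read 10.77, 10.90, 10.95, 10.96 and 11.03 in deprived rats, 10.81, 10.95 and 11.06 in regular rats, and 10.73, 10.91 and 10.94 in supplemented rats. The 3 groups of each gene overlapped over most of their range. Ets1 differed by -0.06 between supplemented and regular rats (interval -0.19 to 0.06) and by -0.03 between deprived and regular rats (interval -0.15 to 0.10). After quantile normalization Klf3 (0.31, adjusted p = 5.61e-04) and Ets1 (0.18, adjusted p = 0.0138) were higher in supplemented than in deprived rats. On that scale Klf3 ran from 10.92 to 11.15 in supplemented and from 10.53 to 10.74 in deprived rats. Ets1 ran from 10.94 to 11.11 and from 10.72 to 10.90, so neither gene overlapped between these diets.

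Some arrays stood to 1 side for most of the 10 genes. The mean of their centred values (each gene minus its own mean over 17 arrays) was 0.01 ± 0.07 (SD, n = 5) in deprived, 0.02 ± 0.06 (SD, n = 6) in regular and -0.04 ± 0.06 (SD, n = 6) in supplemented rats, and the groups overlapped. Regular replicate 1 was above the mean in 9 of the 10 genes, and deprived replicate 5 was below it in 9 of the 10, Il7r being the exception on both. Supplemented replicate 5 was lowest of all arrays for Satb1, Ets1 and Il7r, and supplemented replicate 3 for Tcf7, Lef1 and Bach2. Over all 17 arrays, Tcf7 had the widest range (0.78) and Satb1 the next (0.70), while Foxo1, Ets1 and Lef1 each had a range of 0.33.

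**Figure D3:**
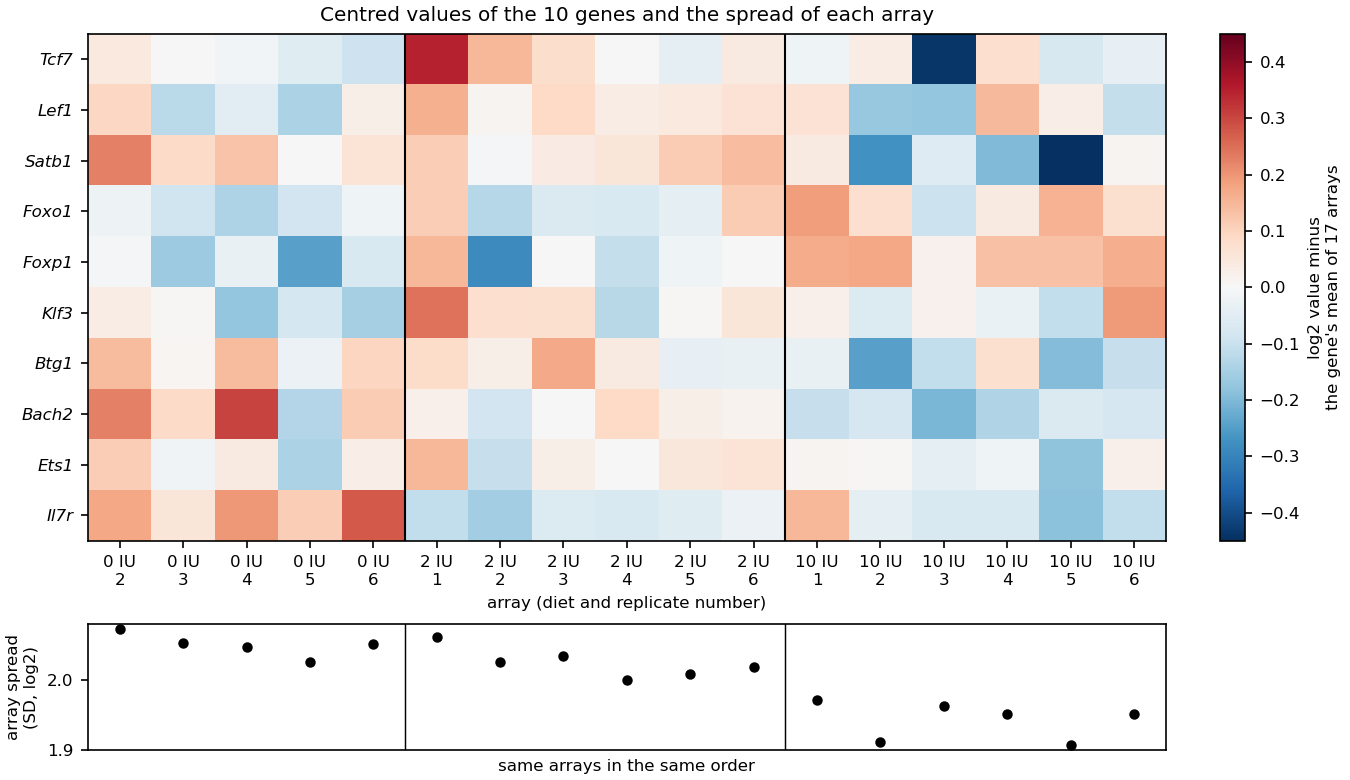
Each gene's log2 value minus its mean over the 17 arrays (colour), with 1 column an array grouped by diet, and below it the spread of the same array (SD of its log2 values). Il7r is above its mean on all 5 deprived arrays and Foxp1 on all 6 supplemented arrays, whose spread (1.91 to 1.97) lies below that of every other array; replicates of a diet have no order.

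The direction of the calls depended on how arrays were scaled. Between supplemented and deprived rats, the deposited values gave 1 gene higher and 4 lower. Quantile normalization gave 5 higher (Lef1, Foxo1, Foxp1, Klf3 and Ets1) and 1 lower (Bach2), beside 32.8% of all genes called. Cyclic loess called the same 6 genes in the same directions, beside 32.5%. Centring each array on its median gave 4 lower and 0 higher, with the median of all genes moved by -0.10. Of all 10879 genes, 4177 were called lower and 607 higher on that scaling. With the array spread as a covariate in limma, 0 of the 10 genes passed and 0 of all genes did in either comparison with supplementation. With the myeloid marker mean as the covariate, 0 of the 10 passed in either of those comparisons.

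Foxp1 (higher) and Bach2 (lower) in supplemented against deprived rats were the calls in that comparison shared by the deposited, quantile-normalized and loess-normalized values. Between supplemented and regular rats, quantile normalization and cyclic loess each called Foxo1, Foxp1 and Il7r as higher and no member as lower, against Foxp1 higher and Satb1 lower on the deposited values. Of all 10879 genes, quantile normalization called 1053 higher and 1724 lower there, and cyclic loess 945 higher and 1745 lower. Median centring called 5 members as lower, Tcf7 (-0.25), Lef1 (-0.18), Satb1 (-0.31), Btg1 (-0.22) and Bach2 (-0.20), where the median of all genes moved by -0.08. It called 3343 of all genes lower and 312 higher.

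**Figure D4:**
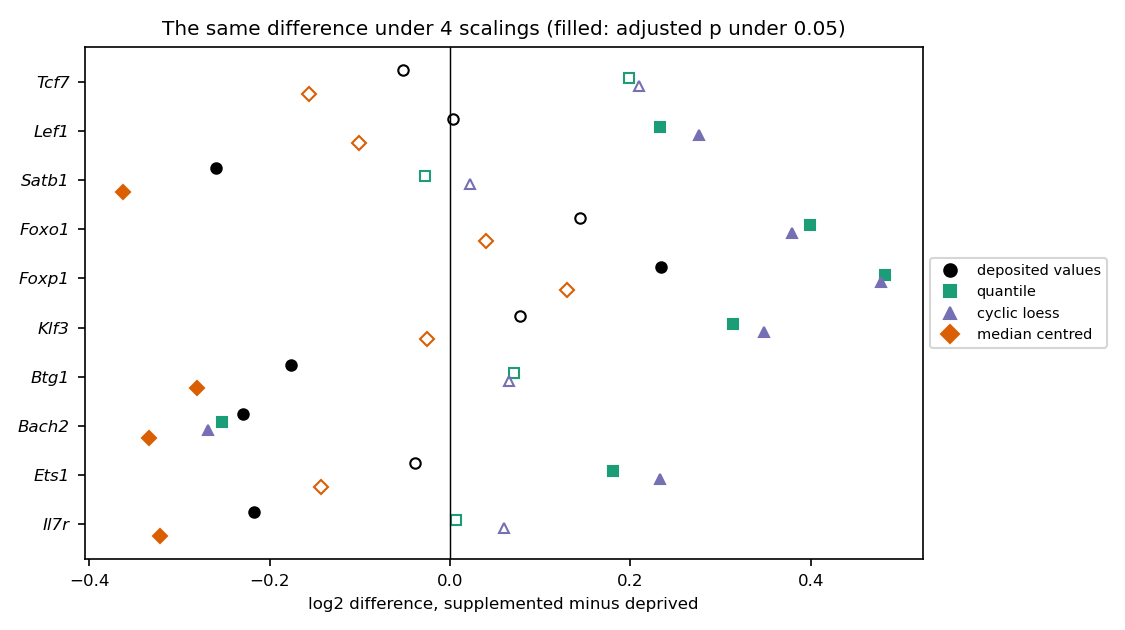
Log2 difference between supplemented and deprived rats for each gene on the deposited values and after 3 other scalings; filled symbols passed an adjusted p of 0.05 in limma. Foxp1 lies right of 0 and Bach2 left of 0 on all 4 scalings, whereas Btg1 and Il7r lie left of 0 on the deposited and median-centred values and right of 0 after quantile normalization (0.07 and 0.01) and cyclic loess.

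Other genes of the naive and quiescent state were examined from a list of 30, of which 23 were measured and tested. Between supplemented and regular rats 0 rose, 9 fell and 14 did not pass (median -0.13, beside 0.00 for all genes), where 22.9% of all genes were called lower. The largest falls were in Pik3ip1, an inhibitor of phosphoinositide 3-kinase (-0.51, SE 0.13), Tob1, an antiproliferative relative of Btg1 (-0.50, SE 0.09), and S1pr1, the receptor by which T cells leave lymph nodes (-0.45, SE 0.09). Klf2, the factor that drives S1pr1, fell by 0.35 and Slfn2, a quiescence factor, by 0.35, the latter not past the threshold after quantile normalization (-0.16) or cyclic loess (-0.17). Between deprived and regular rats 2 rose, 0 fell and 21 did not pass, where 1.49% of all genes were called higher and 0.184% lower. The 2 were Tob1 (0.41, SE 0.10, limma adjusted p = 0.0368) and Zfp36l2 (0.33, SE 0.07, adjusted p = 0.0248), which promotes messenger RNA decay. Neither call held after quantile normalization (limma adjusted p = 0.0878 for Tob1 and 0.0873 for Zfp36l2) or cyclic loess (0.0553 and 0.0562). On those 2 scalings 0 of the list rose, and loess called S1pr1 lower (-0.36, adjusted p = 0.0338). With each array centred on its median both calls held, Tob1 at 0.43 (adjusted p = 0.02955) and Zfp36l2 at 0.35 (adjusted p = 0.0203). Between supplemented and deprived rats 2 rose and 9 fell, where 18.6% of all genes were called higher and 28.6% lower.

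Tob1 had the largest change of that list. Its arrays ran from 7.35 to 7.98 in deprived, 7.21 to 7.35 in regular and 6.60 to 7.18 in supplemented rats, so that the supplemented arrays overlapped with neither other diet. It fell by 0.90 from deprived to supplemented rats (SE 0.10, limma adjusted p = 6.02e-07), and by 0.90 after quantile normalization and cyclic loess as well. The 2 genes that rose between deprived and supplemented rats were Dapl1 (0.40), a marker of naive T cells, and Igfbp4 (0.20). The counts of the list moved with the scaling, to 7 higher and 5 lower after quantile normalization and 8 higher and 5 lower after cyclic loess for supplemented against deprived rats, and to 2 or 3 higher and 5 lower for supplemented against regular rats. For supplemented against deprived rats 32.8% and 32.5% of all genes were called on these scalings. For supplemented against regular rats 1053 and 945 of 10879 genes were higher, and 1724 and 1745 lower.

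**Figure D5:**
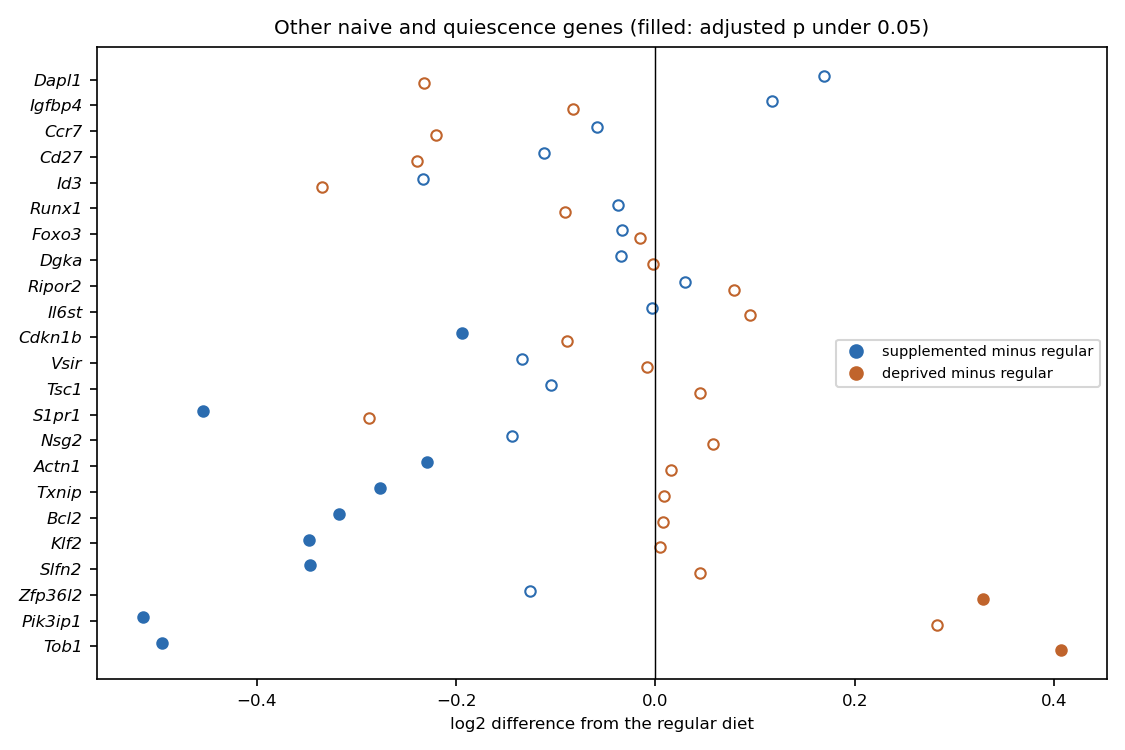
Log2 difference from regular rats of the 23 tested genes on the list of other naive and quiescence genes, in blue for supplemented and in orange for deprived rats; filled points passed an adjusted p of 0.05 in limma. The 9 filled blue points lie left of 0 and the 2 filled orange points, Tob1 (0.407) and Zfp36l2 (0.329), right of it.

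Genes that FOXO1 is known to control formed a list of 15. Of 12 tested target genes, 8 fell, 0 rose and 4 did not pass between supplemented and regular rats (median -0.31), where 22.9% of all genes were called lower. Ccng2, a cyclin of non-dividing cells, fell by 0.34 (SE 0.08, limma adjusted p = 0.00176) and the survival gene Bcl2 by 0.32 (SE 0.09, adjusted p = 0.0130). Pik3ip1, S1pr1, Klf2, Bcl2 and Cdkn1b (-0.194) are also on the list of other naive and quiescence genes. Their falls are counted on both lists, so the 2 counts are not separate. Between deprived and regular rats Ccng2 rose (0.32, SE 0.08, adjusted p = 0.0437) and 11 did not pass, where 1.49% of all genes were called higher. That call was lost on quantile-normalized values (0.25, adjusted p = 0.106) and on loess-normalized values (0.25, adjusted p = 0.0734). Between supplemented and deprived rats 7 fell, where 28.6% of all genes were called lower. That comparison had 1 higher and 4 lower after quantile normalization and after cyclic loess, beside 32.8% and 32.5% of all genes called. The count of falls against regular rats was 4 after quantile normalization, 4 after cyclic loess and 4 when supplemented replicates 2 and 5 were left out, whose spread was the smallest. Klf2 (-0.32 and -0.31) and Pik3ip1 (-0.46 and -0.43) were among the calls that held on both scalings, and Ccng2 (-0.16 and -0.17) and Bcl2 (-0.13 and -0.12) were not.

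Partners of the interleukin 7 receptor carry its signal through JAK kinases and STAT5. Of 14 tested, 5 fell, 0 rose and 9 did not pass between supplemented and regular rats, beside the same 22.9% of all genes lower. Bcl2, already counted above, was among the 5. Between deprived and regular rats 14 did not pass, where 1.67% of all genes were called. For supplemented against deprived rats 7 fell, where 28.6% of all genes were called lower. That comparison had 2 higher and 4 lower after quantile normalization and after cyclic loess, beside 32.8% and 32.5% of all genes called. Jak1, the kinase bound to the Il7r chain, ran from 11.24 to 11.52 in supplemented, 11.61 to 11.77 in regular and 11.79 to 11.90 in deprived rats, with no overlap between any 2 diets. It fell by 0.31 from regular to supplemented rats (SE 0.06, limma adjusted p = 5.73e-04), a difference of -0.13 once quantile-normalized and -0.10 by cyclic loess, both short of the threshold. Stat5b, the transcription factor activated by that kinase, fell by 0.45 (SE 0.08, adjusted p = 1.67e-04), and by 0.33 after quantile normalization. For supplemented against regular rats the list had 2 higher and 2 lower after quantile normalization, and 1 higher and 2 lower after cyclic loess.

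Relatives of the members within their gene families were mixed. Of 18 tested, 2 rose, 5 fell and 11 did not pass between supplemented and regular rats, 7 calls beside 33.7% of all genes. Klf2 and Tob1, already counted above, were among those that fell. Tob1 passed as higher in deprived rats on the deposited values, beside 1.49% of all genes. Another 2 rose and 5 fell between supplemented and deprived rats, beside 18.6% of all genes higher and 28.6% lower. In the last comparison 4 were higher and 7 lower after quantile normalization and after loess alike, beside 32.8% and 32.5% of all genes called. Tcf7l1, a relative of Tcf7 and Lef1 that is better known from stem cells, ran from 7.26 to 7.46 in supplemented and 6.78 to 7.06 in deprived rats without overlap. It was higher by 0.44 (SE 0.08, limma adjusted p = 1.19e-04), and by 0.45 and 0.43 after quantile normalization and cyclic loess. Ets2, a relative of Ets1, fell by 0.36 (SE 0.06, adjusted p = 6.31e-05) and Gabpa, another Ets factor, by 0.43 (SE 0.08) in the same comparison, against -0.19 after each of quantile normalization and cyclic loess, both past the threshold.

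Genes of T cell activation rise as the naive programme is lost. Of 19 tested, 0 rose and 5 fell between supplemented and regular rats, 1 rose between deprived and regular rats, and 1 rose and 4 fell between supplemented and deprived rats. Of all genes, 1.49% were called higher in the second of these comparisons, and 18.6% higher and 28.6% lower in the third. For supplemented against regular rats 22.9% of all genes were called lower, and the activation list had 2 higher and 3 lower after quantile normalization and 0 higher and 3 lower after cyclic loess. The gene that rose in deprived rats was Cd69, an early activation and tissue retention marker (0.62, SE 0.09, n = 5 and 6, limma adjusted p = 0.00102), whose deprived arrays (10.34 to 10.81) lay above all regular arrays (9.83 to 10.14). Cd69 was higher by 0.54 after quantile normalization and 0.55 after cyclic loess, both past the threshold. The kinase gene Cdk4 fell by 1.09 (SE 0.17) and Myc by 0.26 (SE 0.07) from regular to supplemented rats.

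For each member, the tested genes with the most similar centred profile over the 17 arrays were found by the root mean square difference, as a description over arrays that share their spread. Il7r was closest to Rbm39 (0.059 on the log2 scale), Mycbp2 and Chd1, where the median gene differed from it by 0.20. Foxp1 was closest to Hm13 (0.046), Prr3 and Scaf4, and Foxo1 to Sp110 (0.055), Scaf4 and Ralgdsl3, so that Scaf4 stood on both lists. Ets1 was closest to Rffl (0.051), its family relative Fli1 (0.052) and Atg16l1. Tcf7 was closest to Tox (0.074), another HMG-box factor of T cells, Tnfaip8l2 and Rbm38, and Lef1 to Cir1 (0.069), Ints11 and Cry2. Satb1 was closest to Psmb8 (0.059), Ncoa3 and Isg20l2, Bach2 to Rps6 (0.074), Memo1 and Phf11b, Btg1 to Stard7 (0.055), Pdk1 and Usp48, and Klf3 to Cog1 (0.075), Ttc33 and Klk1c6. No member was on the list of another.

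The 250 bases before the listed start were searched in 9 members matched in RefSeq (GRCr8) and in 33469 promoters, on both strands. The vitamin D receptor binds DNA as a pair with the retinoid X receptor, at direct repeats of a short hexamer with a gap. The repeat of AGGTCA with any 3 bases between its copies was in 0 of the 9 and 0.021% of all promoters. The single hexamer AGGTCA, which is contained in that repeat, was in 0 of 9 (14.1% of all) and the variant AGTTCA in Lef1 (12.2% of all). The FOXO letters TGTTTAC were in Foxp1 (3.21% of all) and the RUNX letters TGTGGT in Il7r (14.5% of all), as capitals mark above. CTTTGAA, bound by TCF1 and LEF1, and CCGGAAG, bound by Ets factors, were in 0 of 9 (4.68% and 7.27% of all). Only these exact letters were counted, so sites of the same factors spelled otherwise were not searched for. A match is a description of letters in this window and no evidence of binding.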

How the data were processed

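Analysis began from the log2 table deposited by the authors (29214 transcript clusters on 17 whole-transcript rat gene arrays, 250 ng of total RNA each per the labels' protocols). The submitters' processing notes name RMA and Partek 6.0. The base of the logarithm is inferred from values of 2.14 to 13.8. The sources used here give no probe file, build, filter, batch or scan date. A platform annotation gave 15310 clusters 1 symbol, 323 several and did not list 13581, and 15279 matched the RefSeq gene table by Entrez identifier.

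Each gene was represented by the cluster with the highest mean, and the lowest 25% of genes were left out (10879 tested). The 3 diets entered a single limma model (version 3.58.1, R 4.3.3, lmFit and eBayes, 14 residual and 8.19 prior degrees of freedom), with Benjamini-Hochberg adjustment over genes and a threshold of 0.05. It was tested on simulated data first. Those data had independent noise per gene and no difference in array spread between diets, so the test does not cover that difference. Intervals cover 95%, and the number of arrays limits the precision. Array spread was compared by an exact two-sided permutation of arrays, with adjustment for 3 pairs of diets. All 10 members are named, and of each other list up to 5 genes with the smallest F test p. Dapl1, Igfbp4 and Cdkn1b were named after their values were seen. The members and lists were chosen with earlier results of these data known. Same-numbered replicates were not paired: of 16 same-number pairs, 1 had a correlation of deviations above 0.1 (range -0.159 to 0.116). No 2 arrays held identical values (136 pairs, r from 0.977 to 0.995). Alternatives were other scalings (quantile, cyclic loess, median), no filter or a 50% filter, all clusters, a variance trend, array weights, array spread or marker means as covariates, a replicate block, 2-diet fits, a threshold of 0.1 and arrays left out. List counts under other scalings, and those of single list genes, were chosen after seeing the data.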

Additional observations from a re-analysis of the deposited data

Results flagged for a closer look

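Among 33 groups examined (10 genes and the array spread in each of 3 diets), 3 had 1 array far from the rest, where chance flags about 1 in 20 groups. Tcf7 on supplemented replicate 3 was 10.12 against 10.48 for the next lowest supplemented array, a gap of 0.712 of the group's range. Foxp1 on the same array was 9.86 against 9.97, a gap of 0.725 of the range. Ets1 on supplemented replicate 5 was 10.73 against 10.87, a gap of 0.683 of the range. The critical value for 6 arrays is 0.625. Even at 9.86, Foxp1 on that array lay above all 5 deprived arrays.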

How the results depend on the processing

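Of 960 member differences recomputed over 32 settings, 10 turned direction with the call and 39 turned sign with no call on either side. On quantile-normalized values the difference between supplemented and deprived rats became 0.071 for Btg1, 0.181 for Ets1 and 0.007 for Il7r. After cyclic loess it became 0.065 for Btg1, 0.233 for Ets1, 0.06 for Il7r and 0.022 for Satb1. With array spread as a covariate it became 0.113 for Btg1, 0.181 for Satb1 and, outside the members, 0.141 for Stat5b, and supplemented minus regular became 0.104 for Satb1. The cause was not tested.

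Members called between supplemented and regular rats (2 on the deposited values) numbered 5 with median centring, 1 with no filter on dim genes, with all clusters, with the replicate block and with the 2 diets alone, 4 at a threshold of 0.1, and 0 with the spread covariate, with the macrophage covariate and without supplemented replicates 2 and 5, with 0 to 2 when 1 array was left out. For deprived against regular rats (1, Il7r) the number was 0 after quantile normalization and cyclic loess, with no filter, all clusters, the spread, B cell or macrophage covariate or the replicate block, and 0 to 1 when 1 array was left out. For supplemented against deprived rats (5) it was 0 with the spread or macrophage covariate, 2 with the B cell covariate and 3 without supplemented replicates 2 and 5. In the F test (4) it was 7 after quantile normalization and cyclic loess, 0 with the spread, 2 with the B cell and 1 with the macrophage covariate, and 2 without those arrays.

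Of all genes, 3661 were called between supplemented and regular rats, 6901 with all clusters, 0 with the spread covariate, 1711 with the macrophage covariate and 2171 without supplemented replicates 2 and 5. The 5132 between supplemented and deprived rats became 10785, 0 and 2236 with all clusters, the spread and the macrophage covariate. The 182 between deprived and regular rats became 40 after quantile normalization, 84 after cyclic loess, 889 with array weights, 68 and 62 with the spread and macrophage covariates, 466 with the 2 diets alone, 301 without supplemented replicates 2 and 5, 407 at a threshold of 0.1, and 33 to 244 when 1 array was left out. The array spread differed between deprived and regular rats by 0.0194 to 0.0324 when 1 array was left out, and passed without deprived replicate 5 (0.0311) and without regular replicate 1 (0.0324).

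The replicate block, whose numbers do not pair the samples, ended the call of Foxp1 for supplemented minus regular (limma adjusted p = 0.0575) and of Il7r for deprived minus regular (0.0595) and no other member call. A second cluster per gene could not be tried, since each member had 1. Because spread, marker means and supplementation go together, covariate fits cannot tell them apart. Signal over background was not in the table, so the level filter stands in for it.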
